A study of Mus musculus with 12 samples.

Results

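Treadmill exercise in wild-type mice was examined in 6 of the 12 muscle RNA-seq libraries of a study on mice with and without the transcription factor NRF2: 3 libraries of C57BL/6 mice exercised on a treadmill and 3 of C57BL/6 mice kept sedentary. They were chosen by genotype and exercise label alone. All animals were males aged 5 months, and neither wild-type group carried a deletion or received an agent. The other 6 libraries, 3 treadmill and 3 sedentary, came from NRF2-KO mice on the same background, males of the same age; they enter here only where the wild-type difference is set against the knockout one. The muscle sampled, the length and number of the runs, and the time from exercise to sampling are not stated. Nor do the labels say that the 3 samples of a group are separate animals, so the p-values speak of the variation among these libraries, which may be technical.

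Muscle contraction draws on ATP supplied by mitochondrial respiration and glycolysis. A bout of endurance exercise is known to induce immediate early transcription factors and metabolic regulators such as Ppargc1a and Pdk4 for some hours, and repeated training is known to raise mitochondrial content and capillary supply and to move fast fibres towards a slower, more oxidative type. Whole muscle also contains fibroblasts, vessels, macrophages, satellite cells, fat and blood. In bulk samples, more cells of a type and more RNA of a gene per cell cannot be told apart.

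The 6 libraries held 21232040 to 29990968 counts, and the filter on low counts kept 13739 genes. Each treadmill library had a sedentary partner with the same replicate number: the partners numbered 1 were sequenced on lanes 8 and 7, those numbered 2 on lane 3 and those numbered 3 on lane 4. Same-numbered libraries deviated from their group means together, with correlations across genes of 0.552, 0.312 and 0.269 for numbers 1, 2 and 3. The leading principal component of log2 CPM held 43.2% of the variance and set both number 1 libraries, at -23.3 in treadmill and -27.5 in sedentary muscle, apart from the other 4, at 6.5 to 17.1. The comparison was therefore made within numbers, with the number as a block, and a difference within a number is called a pair difference below. Levels are CPM, that is counts scaled to library size and normalization factor. Markers of muscle fibres summed to 133200 to 141600 CPM in treadmill and 125500 to 138700 CPM in sedentary libraries, and those of keratinocytes to 10.8 to 12.1 CPM in treadmill and 11.9 to 12.6 CPM in sedentary libraries. A test of the number itself called 1528 of 13739 genes (11.1%), far more than the treadmill did.

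Almost no single transcript was called as different between treadmill and sedentary muscle with these 3 pairs. The threshold was an adjusted p of 0.05 by edgeR's quasi-likelihood test, and 1 of 13739 genes passed it (0.00728%). At an unadjusted p below 0.05 there were 817 genes (5.95%), 335 of them higher (2.44%) and 482 lower (3.51%) in treadmill muscle. All genes named below missed the threshold after adjustment, and their values are descriptions. The pairs shared little direction across genes: the pair differences correlated at 0.125 between pairs 1 and 2, -0.078 between pairs 1 and 3 and -0.007 between pairs 2 and 3, over 13739 genes of libraries that share no sample between pairs. Treadmill lay above sedentary in all 3 pairs for 14.0% of genes and below in all 3 pairs for 13.4%. Groups did not overlap for 2.83% of genes with treadmill above and 2.84% with treadmill below. The median log2 fold change over all genes was 0.0035, and 51.0% of genes lay above 0 and 49.0% below. The gene lists below are read against these shares. An exact two-sided sign-flip test on 3 pairs cannot go below 0.25 and an exact permutation test of 3 libraries against 3 cannot go below 0.1, so neither was used for single genes.

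**Figure D1:**
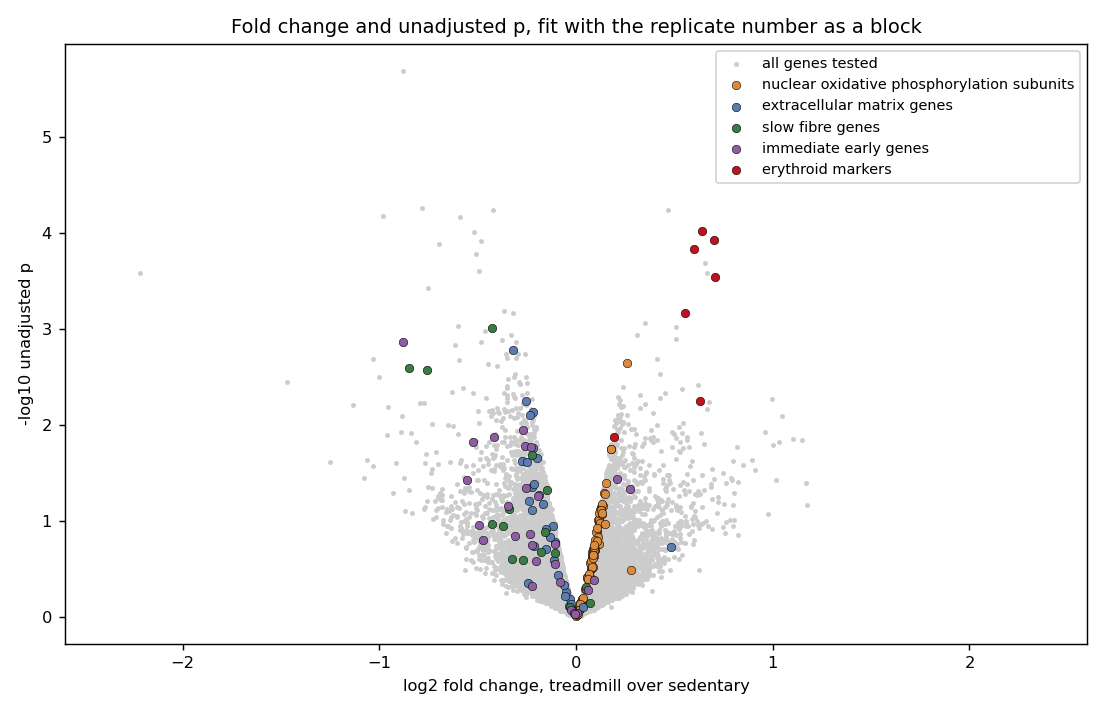
Log2 fold change of treadmill over sedentary muscle (horizontal axis) against -log10 of the unadjusted p (vertical axis) for 13739 genes, with 5 gene lists marked. The 7 erythroid markers lie to the right and most of the 78 oxidative phosphorylation subunits form a narrow band just right of 0.

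Transcripts of red blood cells lay higher in treadmill muscle. Of 9 erythroid markers 7 were measured. Treadmill lay above sedentary in all 3 pairs for 7 of 7, against 14.0% of all genes. The groups did not overlap for 7 of 7, against 2.83% of all genes. In the adjusted test 0 of 7 passed. At an unadjusted p below 0.05 (edgeR) there were 7 of 7, against 2.44% of all genes higher. Among these transcripts are those of the adult alpha globins Hba-a1 and Hba-a2, the adult beta globins Hbb-bs and Hbb-bt, of Alas2, the erythroid enzyme that starts haem synthesis, and of Bpgm, which makes the bisphosphoglycerate that lowers the oxygen affinity of haemoglobin. Slc4a1, the red cell anion exchanger and a defining marker of the lineage, did not pass the filter on low counts. The summed level of the 7 markers ran from 527.3 to 650.3 CPM in treadmill libraries and from 374.5 to 452.0 CPM in sedentary libraries. The globins of a pair are near-identical copies, and the levels of the globins and Alas2 moved together across libraries. The 7 markers are therefore not 7 independent observations, and their counts cannot be weighed against the shares of all genes as if they were.

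The 250 bases upstream of the start site of 4 of these genes are shown because they were the erythroid genes with the smallest p-values and share several of the motif letters searched. Capitals mark GATAA (letters bound by GATA factors), CACCC (letters bound by erythroid Krüppel-like factors), CCAAT and TATAA, on either strand; adjacent capitals can come from overlapping or touching matches. Sequences are RefSeq's for GRCm38.p6, written 5′ to 3′ on the strand of the gene. The Hba-a1 window is chr11:32283422-32283671, plus strand; the Hbb-bs window is chr7:103827929-103828178, minus strand; the Hbb-bt window is chr7:103813924-103814173, minus strand; and the Alas2 window is chrX:150547167-150547416, plus strand.
Hba-a1: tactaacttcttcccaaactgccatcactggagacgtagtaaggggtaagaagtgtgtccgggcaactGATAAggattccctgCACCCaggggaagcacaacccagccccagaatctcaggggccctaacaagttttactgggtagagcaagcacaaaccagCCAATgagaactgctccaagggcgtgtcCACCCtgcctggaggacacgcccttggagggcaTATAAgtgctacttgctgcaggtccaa
Hbb-bs: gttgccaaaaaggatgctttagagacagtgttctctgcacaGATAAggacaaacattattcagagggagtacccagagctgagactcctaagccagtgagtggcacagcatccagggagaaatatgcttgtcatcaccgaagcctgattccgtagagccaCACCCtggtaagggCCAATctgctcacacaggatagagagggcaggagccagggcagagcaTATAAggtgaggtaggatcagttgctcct
Hbb-bt: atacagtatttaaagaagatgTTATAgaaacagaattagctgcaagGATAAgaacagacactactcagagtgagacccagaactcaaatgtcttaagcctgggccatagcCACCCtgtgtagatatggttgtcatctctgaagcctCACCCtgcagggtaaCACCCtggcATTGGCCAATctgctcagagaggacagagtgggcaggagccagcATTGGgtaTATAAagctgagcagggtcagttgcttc
Alas2: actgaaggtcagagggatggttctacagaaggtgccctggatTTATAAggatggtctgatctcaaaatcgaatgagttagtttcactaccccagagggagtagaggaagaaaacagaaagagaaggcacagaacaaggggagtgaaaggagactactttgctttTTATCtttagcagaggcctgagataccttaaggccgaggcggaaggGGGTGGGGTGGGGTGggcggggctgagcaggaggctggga
Of the 7 measured markers 6 had a promoter sequence, and 5 of these 6 held GATAA, 5 CACCC, 5 CCAAT and 5 TATAA. Among 32851 windows of the same length the shares were 22.6% for GATAA, 52.0% for CACCC, 33.8% for CCAAT and 22.8% for TATAA. A gene was counted if any of its windows held the letters, whereas these shares are of single windows. The gene counts and the window shares are therefore not like for like. The windows of Hba-a1 and Hba-a2 share a run of 247 of 250 bases, so their matches are not independent.

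Hbb-bs was the most abundant of them. It had 235, 333 and 241 CPM in treadmill libraries 1, 2 and 3, against 204, 174 and 152 CPM in sedentary libraries 1, 2 and 3. All 3 treadmill libraries lay above all 3 sedentary ones, with a log2 fold change of 0.60 (SE 0.11, adjusted p 0.168, edgeR). Hba-a1 had 35.5, 44.8 and 34.1 CPM in treadmill libraries, against 30.01, 21.9 and 18.4 CPM in sedentary libraries, a log2 fold change of 0.70 (SE 0.12, adjusted p 0.164, edgeR). Alas2 had 15.7, 16.4 and 15.4 CPM in treadmill libraries, against 13.1, 9.09 and 7.11 CPM in sedentary libraries (log2 fold change 0.70, SE 0.14). For each of these genes the treadmill group stayed clear of the sedentary group, and pair 1 was the closest. Log2 fold changes were 0.64 for Hbb-bt, 0.55 for Hba-a2 and 0.19 for Bpgm, which was named after its values were seen. The median over the 7 markers was 0.629, with median pair differences of 0.240, 0.938 and 0.760. Globin genes of a pair are near-identical copies, so the division of reads between Hba-a1 and Hba-a2 and between Hbb-bs and Hbb-bt is uncertain, and Alas2 overlaps Apex2 on the opposite strand in libraries that do not keep strand. None of the 7 markers differed between replicate numbers at an adjusted p of 0.05.

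Among the genes with the smallest p-values that lay higher, Mib1 had the smallest. Mib1, a ubiquitin ligase that acts on Notch ligands, had 264, 355 and 265 CPM in treadmill libraries, against 166, 260 and 216 CPM in sedentary libraries. The groups did not overlap, though treadmill library 1 and sedentary library 2 were close (log2 fold change 0.47, SE 0.08, adjusted p 0.156, edgeR). Kazald1, a secreted protein with an insulin-like growth factor binding domain, had 7.98, 5.07 and 6.77 CPM in treadmill libraries, against 5.41, 3.17 and 4.01 CPM in sedentary libraries (log2 fold change 0.65, SE 0.12). Cyp2e1, a cytochrome P450 that oxidises ethanol and other small molecules, had 40.4, 52.9 and 35.1 CPM in treadmill libraries, against 35.5, 25.5 and 20.2 CPM in sedentary libraries (0.66, SE 0.13). Both Kazald1 and Cyp2e1 overlapped between groups, by a treadmill library that lay just below sedentary library 1. The genes with the smallest p also included Ankrd23, a titin-binding ankyrin repeat protein (0.31), Rev3l, the catalytic subunit of DNA polymerase zeta (0.35), Cytl1, a small secreted cytokine-like protein (0.51), and the 5 erythroid genes Hbb-bt, Hba-a1, Hbb-bs, Alas2 and Hba-a2.

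Of the genes with the smallest p-values that lay lower, Casr and Map1a kept the groups apart. Casr, the calcium-sensing receptor, had 5.23, 4.62 and 3.86 CPM in treadmill libraries, against 8.22, 7.30 and 8.10 CPM in sedentary libraries. Each treadmill library lay well below each sedentary one, with a log2 fold change of -0.78 (SE 0.13, adjusted p 0.156, edgeR). Map1a, a microtubule-associated protein, had 13.8, 13.1 and 11.5 CPM in treadmill libraries, against 21.5, 16.5 and 16.9 CPM in sedentary libraries (-0.52, SE 0.09); it overlaps Ppip5k1 on the opposite strand. Naca, the alpha subunit of the nascent polypeptide-associated complex, with a long muscle form, had 111, 97.7 and 80.4 CPM in treadmill libraries, against 174, 146 and 92.6 CPM in sedentary libraries (-0.48, SE 0.09). Here the groups overlapped, since sedentary library 3 was nearer to the treadmill libraries than to its own group. Cited2, a transcriptional co-regulator that restrains hypoxia-inducible factors, had 18.2, 17.2 and 14.0 CPM in treadmill libraries, against 29.1, 29.5 and 17.0 CPM in sedentary libraries (-0.59, SE 0.10). Sedentary library 3 again lay among the treadmill libraries.

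Cish, an inhibitor of cytokine signalling through JAK and STAT proteins that those signals themselves induce, had 13.1, 13.9 and 5.92 CPM in treadmill libraries, against 27.6, 18.1 and 8.57 CPM in sedentary libraries. Each treadmill library lay below its partner while the groups overlapped (log2 fold change -0.70, SE 0.12, adjusted p 0.164, edgeR), and the level also differed between replicate numbers (adjusted p 0.00091, edgeR). Cish overlaps Gm17040 and Gm17041 on the opposite strand. Socs1, a related inhibitor chosen after its values were seen, had a log2 fold change of -1.03 (SE 0.26) at a mean of 0.577 ± 0.322 CPM in treadmill and 1.19 ± 0.689 CPM in sedentary muscle (SD, n = 3 each). Socs2, of the same family and also chosen after its values were seen, had a log2 fold change of -0.06 (SE 0.10), with pair differences of -0.29, 0.01 and 0.12. Hmcn2, an extracellular matrix hemicentin (-0.42), Col7a1, the collagen of anchoring fibrils (-0.37), Rere, a nuclear co-repressor (-0.32), Actc1, cardiac alpha-actin (-0.49), Atp2a2 (-0.43) and Per1 (-0.51) were also among the lower genes with the smallest p.

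**Figure D2:**
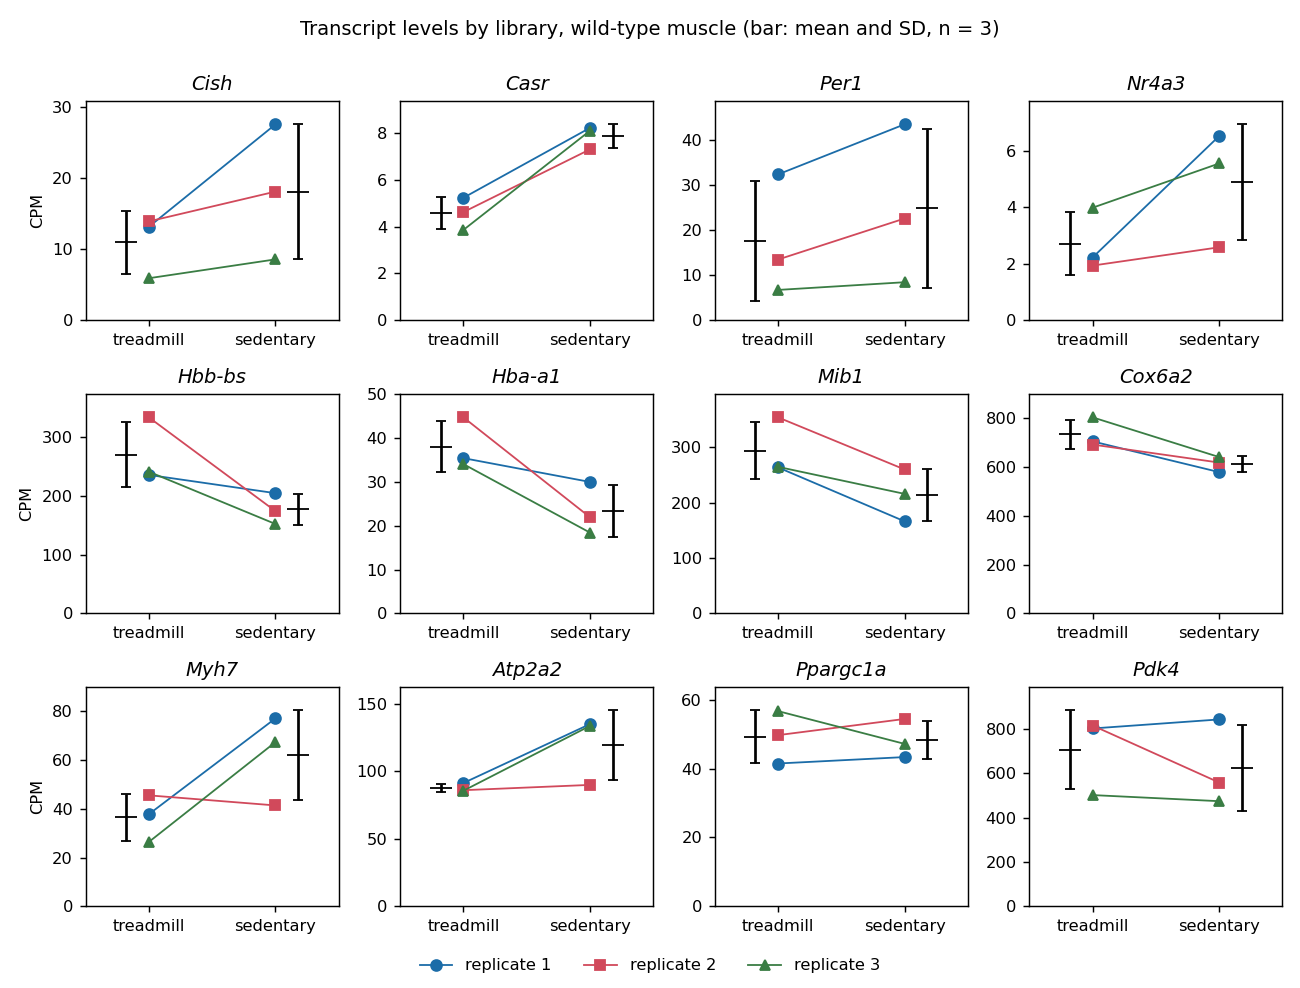
Level in CPM (vertical axes, from 0) of 12 genes in each library, treadmill left of sedentary; lines join libraries with the same replicate number and bars give the mean and SD of 3 libraries. Casr lies below its partner in all 3 pairs (5.23, 4.62 and 3.86 CPM in treadmill against 8.22, 7.30 and 8.10 CPM in sedentary libraries), Hbb-bs above it, and Ppargc1a and Pdk4 lie above it in some pairs and below it in others.

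Genes of mitochondrial respiration leaned upward by small amounts. The electron transport chain and ATP synthase are built from subunits encoded mostly in the nucleus and in part in mitochondrial DNA. Of 78 nuclear oxidative phosphorylation subunits, all of them measured, 76 had a log2 fold change above 0, and 41 of 78 (52.6%) lay above in all 3 pairs, against 14.0% of all genes; 0 of 78 lay below in all 3. Groups did not overlap for 11 of 78, all with treadmill above, against 2.83% of all genes. None passed the adjusted test (0 of 78). At an unadjusted p below 0.05 (edgeR) there were 4, all higher, against 2.44% of all genes higher and 5.95% in either direction. Their median log2 fold change was 0.090, and the pair medians were 0.106, 0.116 and 0.053.

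Cox6a2, the muscle form of a cytochrome c oxidase subunit, had the smallest p of the list, with 706, 693 and 804 CPM in treadmill libraries, against 579, 619 and 641 CPM in sedentary libraries. The treadmill libraries all lay above the sedentary ones (log2 fold change 0.26, SE 0.07, adjusted p 0.676, edgeR), and Cox6a2 overlaps Itgad on the opposite strand. Cox5b, another subunit of that enzyme, had 107, 114 and 122 CPM in treadmill libraries, against 99.0, 97.1 and 106 CPM in sedentary libraries, also without overlap (0.18, SE 0.07). Atp5o, the stalk subunit of ATP synthase that confers sensitivity to oligomycin, had 341, 355 and 397 CPM in treadmill libraries, against 309, 326 and 328 CPM in sedentary libraries (0.18, SE 0.07). Ndufb2 and Uqcrc1, named after their values were seen, were the subunits below 0.

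Mitochondrially encoded mRNAs were measured for 7 of 13 genes, and 0 of 7 passed. The filter on low counts left out mt-Nd3, mt-Nd4l, mt-Co2, mt-Co3, mt-Atp6 and mt-Atp8. Why their counts were low was not tested, so the 7 may not stand for the whole set. All 7 had a log2 fold change above 0, with a median of 0.120. But the median of pair 3 was -0.018 and only 3 of 7 lay above in all pairs. Between replicate numbers 6 of 7 differed, against 11.1% of all genes. mt-Nd5, a subunit of complex I, had 19984, 28642 and 25946 CPM in treadmill libraries, against 16513, 24306 and 25472 CPM in sedentary libraries (0.18, SE 0.08), so the groups overlapped. Of 28 pyruvate dehydrogenase and TCA cycle enzymes, 11 lay above in all 3 pairs (39.3%) and 0 below, with a median of 0.073 and 0 past the test. Idh3g, a regulatory subunit of the NAD-dependent isocitrate dehydrogenase, had 352, 410 and 432 CPM in treadmill libraries, against 310, 350 and 368 CPM in sedentary libraries (0.21, SE 0.06); its groups overlapped, with each treadmill library above its partner. Fatty acid uptake and oxidation genes had a median of 0.063 over 36 members, with the pair medians at -0.105, 0.084 and 0.168, and Acadm, medium-chain acyl-CoA dehydrogenase, had a log2 fold change of 0.19 (SE 0.07).

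Regulators of mitochondrial biogenesis did not share that lean. Of 26 measured, 10 had a log2 fold change above 0 and 16 below, 7 lay below in all 3 pairs (26.9%) and 2 above, and 0 passed. Ppargc1a, the coactivator PGC-1 alpha that drives mitochondrial gene expression, had 41.5, 49.7 and 56.7 CPM in treadmill libraries, against 43.4, 54.4 and 47.2 CPM in sedentary libraries. The groups overlapped throughout (log2 fold change 0.02, SE 0.08). Esrrg, the oestrogen-related receptor gamma of oxidative muscle, had 16.9, 16.5 and 18.6 CPM in treadmill libraries, against 21.1, 19.9 and 23.3 CPM in sedentary libraries. Its groups did not overlap, with treadmill below (-0.31, SE 0.08, adjusted p 0.65, edgeR). Esrrb (-0.37, SE 0.15) and Mef2d, a muscle transcription factor (-0.21, SE 0.07), were the other members with the smallest p.

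**Figure D3:**
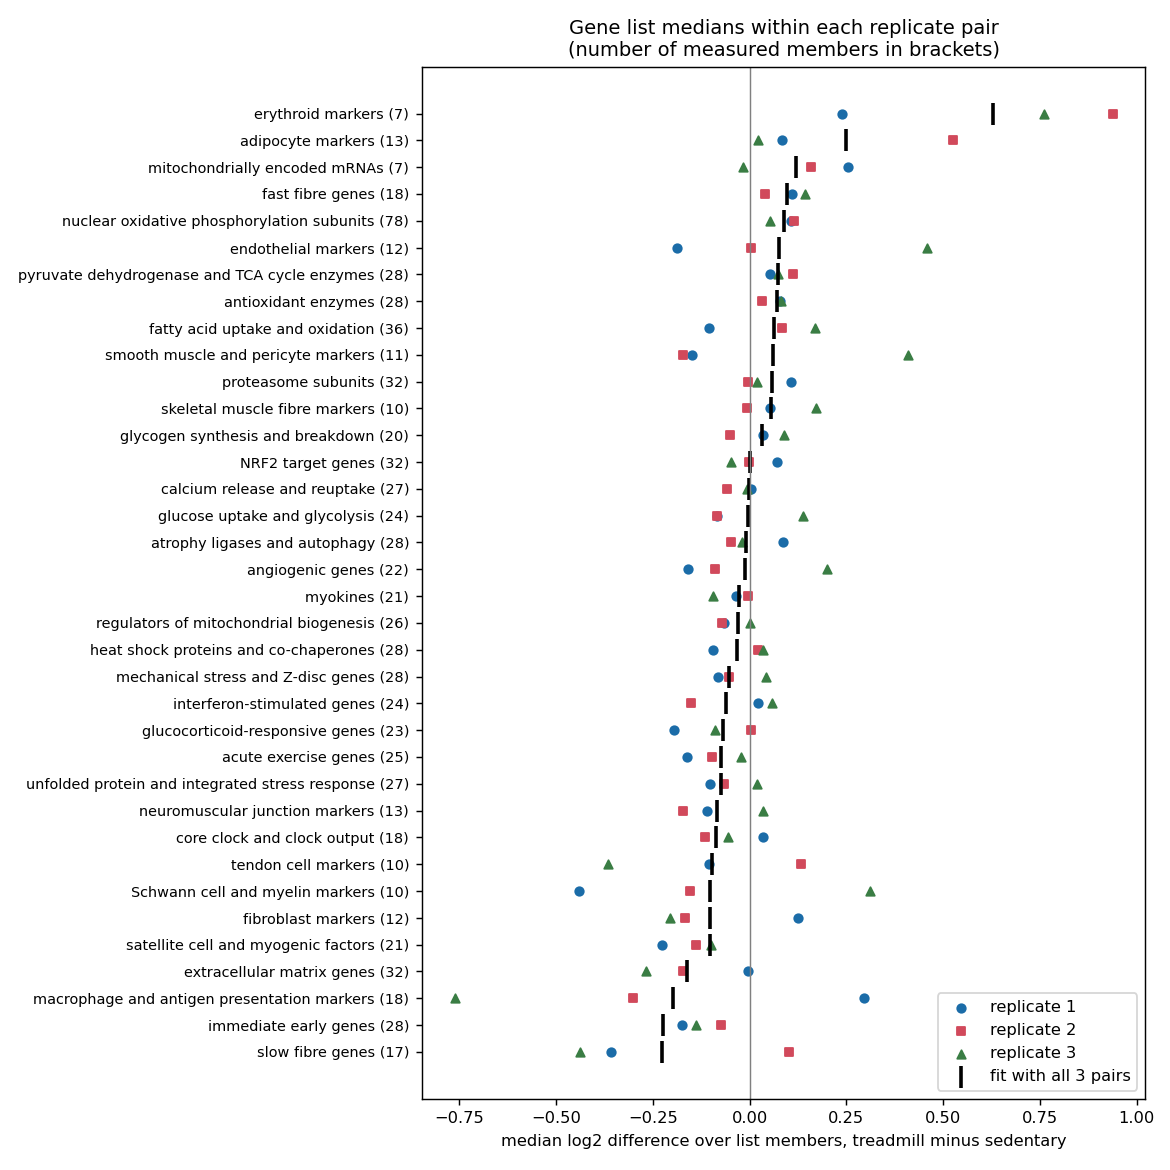
Median log2 difference, treadmill minus sedentary, over the members of each gene list with at least 5 measured members (rows), within replicate pairs 1, 2 and 3 (points) and in the fit with all 3 pairs (vertical bars). Erythroid markers lie right of 0 in each pair (0.240, 0.938 and 0.760), whereas macrophage markers run from 0.295 to -0.762 across pairs.

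Fibre-type genes were divided by kind. The muscle was of the fast type: per kilobase of annotated exon, the fastest myosin heavy chain, Myh4, had a mean level of 5248 CPM per kilobase in treadmill and 5381 in sedentary muscle, while the slow one, Myh7, had 4.25 in treadmill and 7.20 in sedentary muscle. Of 17 slow fibre genes 15 had a log2 fold change below 0. In all 3 pairs 4 lay below (23.5%), against 13.4% of all genes, and 0 above. None passed the adjusted test (0 of 17). At an unadjusted p below 0.05 (edgeR) there were 5, all lower, against 3.51% of all genes lower. The list median was -0.226, but the pair medians were -0.359, 0.101 and -0.438, so pair 2 went the other way. Myh7 had 37.8, 45.6 and 26.4 CPM in treadmill libraries, against 77.2, 41.4 and 67.4 CPM in sedentary libraries. Treadmill library 2 lay above its partner and the groups overlapped (log2 fold change -0.76, SE 0.20, adjusted p 0.733, edgeR). Atp2a2, the calcium pump of the slow sarcoplasmic reticulum, had 91.4, 86.1 and 85.7 CPM in treadmill libraries, against 135, 90.0 and 134 CPM in sedentary libraries (-0.43, SE 0.10). Myh7b, a myosin related to Myh7, had 1.28, 0.894 and 0.900 CPM in treadmill libraries, against 2.06, 1.38 and 2.15 CPM in sedentary libraries (-0.85, SE 0.22). Both lay lower in all 3 pairs, Myh7b without overlap of the groups and Atp2a2 with an overlap and by little in pair 2. Myh7 shares its locus with transcripts of the opposite strand, among them Mhrt, so its counts may hold reads of either. Atp2a2 overlaps Gm43361 on the opposite strand.

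Fast fibre genes had a median of 0.096 over 18 members, 8 of which lay above in all 3 pairs (44.4%) and 0 below; 0 passed. Tnni2, fast troponin I, had 14160, 15212 and 17465 CPM in treadmill libraries, against 12047, 13943 and 14799 CPM in sedentary libraries (log2 fold change 0.20, SE 0.08), and Tnnt3, fast troponin T, had the same log2 fold change. Both overlapped between groups with each treadmill library above its partner. The fast myosins did not lean with the troponins: the log2 fold changes were -0.03 for Myh4, -0.03 for Myh1 and -0.32 (SE 0.11) for Myh2, the myosin of the oxidative fast fibres. Myh2 had 700, 530 and 805 CPM in treadmill libraries, against 1024, 758 and 739 CPM in sedentary libraries, lower in pairs 1 and 2 and higher in pair 3. On the opposite strand Myh1 overlaps Myhas and Myh2 overlaps 9430073C21Rik. Calcium release and reuptake genes had a median of -0.001 over 27 members and 0 called.

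Immediate early genes, which contraction is known to induce within the hour, mostly lay below their sedentary level. Of 28 measured, 23 had a log2 fold change below 0. Of these genes 10 of 28 (35.7%) lay below in all 3 pairs, against 13.4% of all genes, and 1 of 28 lay above. None passed the adjusted test (0 of 28). At an unadjusted p below 0.05 (edgeR) there were 8 lower and 2 higher, against 3.51% of all genes lower and 2.44% higher. The median was -0.223, with pair medians of -0.174, -0.074 and -0.139. Between replicate numbers 17 of 28 differed, against 11.1% of all genes. Nr4a3, an orphan nuclear receptor that exercise strongly induces in human and mouse muscle, had 2.22, 1.94 and 3.99 CPM in treadmill libraries, against 6.53, 2.59 and 5.56 CPM in sedentary libraries. Each treadmill library lay below its partner, and the groups overlapped (log2 fold change -0.88, SE 0.21, adjusted p 0.552, edgeR). Fos, a subunit of the AP-1 transcription factor, had 4.12, 2.48 and 3.09 CPM in treadmill libraries, against 4.11, 4.26 and 5.86 CPM in sedentary libraries. Library 1 of both groups was level and the other pairs differed (-0.52, SE 0.18). Ccn1, a secreted matricellular protein, had a log2 fold change of -0.27 (SE 0.09), and Zfp36, an mRNA-destabilising protein, of -0.42 (SE 0.14).

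The wider list of acute exercise genes had a median of -0.074 over 25 measured members. Of these 6 lay below in all 3 pairs (24.0%), 0 above, and 0 passed. Between replicate numbers 14 of 25 differed, against 11.1% of all genes. Sik1, a salt-inducible kinase, had 9.22, 5.96 and 6.52 CPM in treadmill libraries, against 14.2, 7.68 and 8.27 CPM in sedentary libraries (log2 fold change -0.46, SE 0.11). Pdk4, a kinase that inhibits pyruvate dehydrogenase, had 801, 815 and 501 CPM in treadmill libraries, against 842, 558 and 474 CPM in sedentary libraries. The groups overlapped (0.18, SE 0.10). Ucp3, a mitochondrial carrier induced by fasting and fat, had a log2 fold change of 0.11 (SE 0.08), Hk2, the hexokinase of insulin-sensitive muscle, of -0.12 (SE 0.10), Vegfa, the main angiogenic growth factor, of 0.01 (SE 0.07), and Mstn, myostatin, of 0.00 (SE 0.08). None of these passed the test. The angiogenic gene list had a median of -0.012 over 22 members and 0 called.

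Clock genes varied chiefly with the replicate number. The circadian clock is a transcriptional loop in which CLOCK and BMAL1 activate Per and Cry genes through E-box elements. Of 18 clock genes measured, 11 differed between replicate numbers at an adjusted p of 0.05 (edgeR), against 11.1% of all genes, and 0 differed between treadmill and sedentary muscle. Per1 had 32.3, 13.5 and 6.73 CPM in treadmill libraries 1, 2 and 3, against 43.5, 22.6 and 8.44 CPM in sedentary libraries 1, 2 and 3. Both number 1 libraries were high and both number 3 libraries low; within numbers treadmill lay below (log2 fold change -0.51, SE 0.09, adjusted p 0.176 for treadmill and 3.9e-06 for the number, edgeR). Arntl, which encodes BMAL1 and peaks opposite to Per1 and Dbp, had 10.9, 20.1 and 27.4 CPM in treadmill libraries, against 12.1, 17.8 and 31.1 CPM in sedentary libraries. It was low where Per1 was high, with no shared direction of the treadmill difference (-0.06, SE 0.09); Arntl was chosen after its values were seen. Dbp, a clock output factor, had 37.0, 21.0 and 12.1 CPM in treadmill libraries, against 35.1, 27.7 and 11.5 CPM in sedentary libraries (-0.09, SE 0.10). Nr1d1, the clock repressor REV-ERB alpha, had 19.5, 14.1 and 11.9 CPM in treadmill libraries, against 18.9, 25.2 and 10.9 CPM in sedentary libraries (-0.23, SE 0.15). Dbp overlaps Sphk2 and Nr1d1 overlaps Thra on the opposite strand. The time of day of sampling was not given; the replicate number, its lane and anything else shared by same-numbered samples cannot be told apart. The Per1 window, chr11:69098699-69098948, plus strand of GRCm38.p6 (RefSeq), is shown with its E-box letters CACGTG in capitals.
Per1: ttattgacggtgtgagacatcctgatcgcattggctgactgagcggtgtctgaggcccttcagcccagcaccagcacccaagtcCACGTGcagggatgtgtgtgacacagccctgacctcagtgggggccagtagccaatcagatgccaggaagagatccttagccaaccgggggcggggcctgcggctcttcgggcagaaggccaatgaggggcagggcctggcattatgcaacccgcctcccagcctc
CACGTG, which reads the same on both strands, was in 5 of the 15 clock genes that had a promoter sequence (Bhlhe41, Ciart, Cry1, Per1 and Tef). It was in 6.0% of 32851 single windows. A gene was counted if any of its windows held the letters, so the gene count and the window share are not like for like.

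Glucocorticoid-responsive genes followed the number too, with 13 of 23 differing by it, against 11.1% of all genes. Treadmill lay below in all 3 pairs for 9 of 23 (39.1%) and above for 2, the median was -0.069 and 0 passed. Ddit4, an inhibitor of mTOR complex signalling that glucocorticoids and fasting induce, had 25.1, 12.2 and 5.10 CPM in treadmill libraries, against 47.4, 12.1 and 9.17 CPM in sedentary libraries (log2 fold change -0.61, SE 0.15). Pairs 1 and 3 differed and pair 2 was level. Foxo3, a transcription factor of the atrophy programme, had 17.3, 17.4 and 15.4 CPM in treadmill libraries, against 22.5, 23.0 and 17.7 CPM in sedentary libraries, without overlap (-0.33, SE 0.08, adjusted p 0.632, edgeR). The atrophy ligases and autophagy genes as a list had a median of -0.009 over 28 members.

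**Figure D4:**
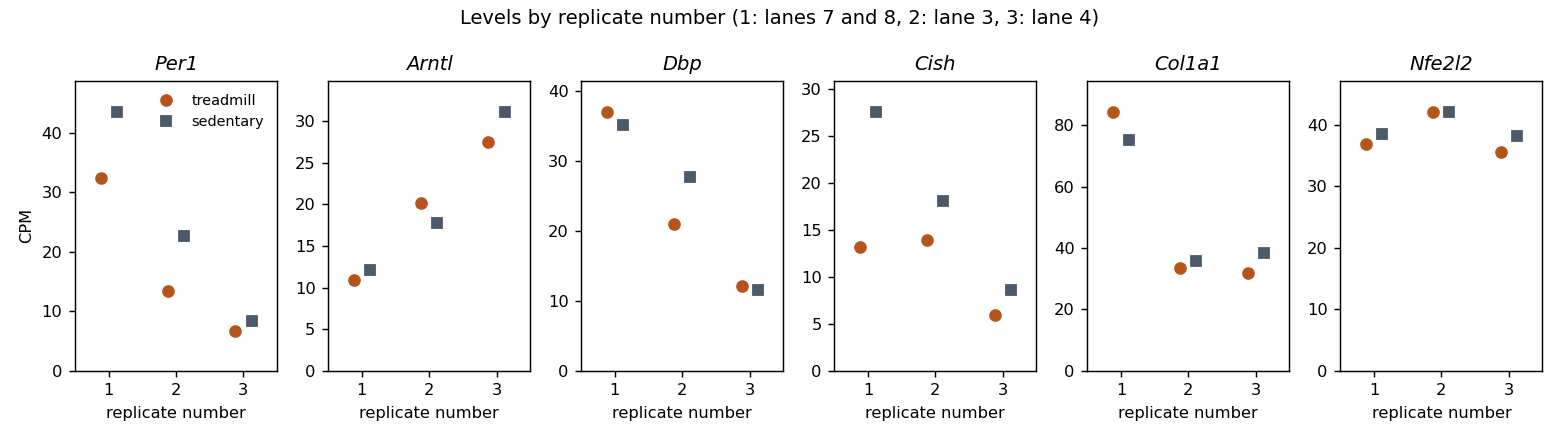
Level in CPM of 6 genes by replicate number (horizontal axis; circles treadmill, squares sedentary). Per1, Dbp and Cish have both number 3 libraries lowest, Arntl has them highest, Col1a1 has both number 1 libraries at 84.3 and 75.3 CPM above all others, and Nfe2l2 is level at 35.6 to 42.1 CPM.

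Extracellular matrix transcripts lay lower in treadmill muscle by a small margin. All 32 were measured, and 30 had a log2 fold change below 0. In all 3 pairs 10 (31.2%) lay below, against 13.4% of all genes, and 0 above. At an unadjusted p below 0.05 (edgeR) there were 10, all lower, against 3.51% of all genes lower. None passed the adjusted test (0 of 32). The median was -0.162, with pair medians of -0.003, -0.172 and -0.268. Lamb1, a laminin beta chain, had 25.0, 18.9 and 22.7 CPM in treadmill libraries, against 32.5, 25.0 and 25.7 CPM in sedentary libraries (-0.32, SE 0.08, adjusted p 0.631, edgeR). Treadmill library 1 was level with sedentary library 2, so the groups met at their edge. Lama2, the laminin alpha chain of the muscle basement membrane, had a log2 fold change of -0.26 (SE 0.08), and Nid1, the nidogen that links laminin to collagen IV, of -0.22 (SE 0.07). The replicate number separated 24 of the 32 genes, against 11.1% of all genes. Col1a1, the main fibrillar collagen, chosen after its values were seen, had 84.3, 33.6 and 31.9 CPM in treadmill libraries, against 75.3, 35.8 and 38.2 CPM in sedentary libraries (-0.05, SE 0.09). Fibroblast markers, which cover the cells that make this matrix, had a median of -0.101 over 12 members. Of these 3 (25%) lay below in all 3 pairs, against 13.4% of all genes, and 8 differed between replicate numbers. The pair medians of these markers were 0.124, -0.167 and -0.205, so pair 1 went the other way. Their summed level was 2092 to 3131 CPM in treadmill and 2358 to 2973 CPM in sedentary libraries. Their part in the matrix values was not tested.

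Macrophage and antigen presentation markers differed mainly by replicate number. All 18 were measured, 0 of 18 passed the test, and 17 of 18 differed between replicate numbers, against 11.1% of all genes. Their median log2 fold change was -0.197, but the median pair differences were 0.295 in pair 1, -0.301 in pair 2 and -0.762 in pair 3, so pair 1 went the other way. The summed level of these markers ran from 242.8 to 616.1 CPM in treadmill libraries and from 296.3 to 504.1 CPM in sedentary libraries. The smallest unadjusted p-values in the list belonged to the class II antigen presentation genes H2-Ab1 (log2 fold change -0.44, SE 0.14) and Cd74, the invariant chain (-0.38, SE 0.12). H2-Ab1 had 27.5, 9.99 and 11.6 CPM in treadmill libraries, against 28.6, 13.3 and 22.6 CPM in sedentary libraries. Each treadmill library lay below its partner, by little in pair 1, and the groups overlapped. Most of the list did not share this: 2 of 18 (11.1%) lay below in all 3 pairs, against 13.4% of all genes, and 0 above.

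Fat cell markers lay higher in treadmill muscle, mainly through pair 2. Of 13 measured, 10 had a log2 fold change above 0, 3 lay above in all 3 pairs (23.1%) and 0 passed. The pair medians were 0.084, 0.525 and 0.022, and the list median was 0.249 with all pairs and 0.057 without pair 2. Between replicate numbers 7 of 13 differed, against 11.1% of all genes. Cfd, the adipocyte serine protease adipsin, had 83.8, 97.5 and 74.3 CPM in treadmill libraries, against 79.1, 49.4 and 60.0 CPM in sedentary libraries (0.45, SE 0.13, adjusted p 0.83, edgeR). Sedentary library 1 was above treadmill library 3. The summed marker level was 2868 to 3720 CPM in treadmill and 2753 to 3229 CPM in sedentary libraries. Endothelial markers had pair medians of -0.187, 0.004 and 0.458, and smooth muscle and pericyte markers of -0.148, -0.173 and 0.410, both turning direction between pairs. Muscle fibre markers had a median of 0.056 over 10 members. Neutrophil and lymphocyte markers were at the edge of detection: 2 of 10 and 1 of 12 passed the filter, without S100a8 or Cd3e.

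Satellite cell and myogenic factors had 20 of 21 members below 0 and a median of -0.102, with pair medians of -0.226, -0.138 and -0.100; 5 of 21 (23.8%) lay below in all 3 pairs and 0 passed. Igfbp5, an insulin-like growth factor binding protein of differentiating myoblasts, had 322, 382 and 366 CPM in treadmill libraries, against 410, 436 and 433 CPM in sedentary libraries. The groups did not overlap, with treadmill below (-0.26, SE 0.07, adjusted p 0.635, edgeR). Pax7, the transcription factor of satellite cells, had 1.96, 1.64 and 1.42 CPM in treadmill libraries, against 2.42, 1.96 and 2.28 CPM in sedentary libraries (-0.40, SE 0.19). Its highest treadmill value met the lowest sedentary one. Myog, the factor of terminal myoblast differentiation, had a log2 fold change of -0.41 (SE 0.17). Among mechanical stress and Z-disc genes, Actn2, alpha-actinin of the Z-disc, had 315, 285 and 336 CPM in treadmill libraries, against 438, 345 and 376 CPM in sedentary libraries, without overlap (-0.30, SE 0.07). Ankrd23 of the same list had 219, 171 and 190 CPM in treadmill libraries, against 172, 126 and 172 CPM in sedentary libraries, on the other side of 0.

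Stress and redox genes held small differences. NRF2 is a transcription factor that activates detoxification and antioxidant genes, and its own transcript Nfe2l2 had 36.9, 42.1 and 35.6 CPM in treadmill libraries, against 38.5, 42.1 and 38.2 CPM in sedentary libraries (log2 fold change -0.06, SE 0.07). Its groups overlapped. NRF2 target genes were spread around 0: of 32 measured, 16 lay above and 16 below 0, 4 were above and 4 below in all 3 pairs (12.5% each), and the median was 0.002, with 0 called. Gstm2, a glutathione transferase, had a log2 fold change of 0.28 (SE 0.09) and Gclm, the modifier subunit of the enzyme that starts glutathione synthesis, of -0.20 (SE 0.08). Antioxidant enzymes leaned upward: 12 of 28 (42.9%) lay above in all 3 pairs, 0 below, with a median of 0.070 and 0 past the test. Prdx5, a mitochondrial and peroxisomal peroxiredoxin, had 147, 156 and 156 CPM in treadmill libraries, against 130, 137 and 145 CPM in sedentary libraries, all treadmill libraries above (0.16, SE 0.06). Selenow, a selenoprotein abundant in muscle, had 827, 834 and 871 CPM in treadmill libraries, against 764, 744 and 781 CPM in sedentary libraries (0.15, SE 0.06), likewise without overlap.

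Unfolded protein and integrated stress response genes had a median of -0.075 over 27 members, 8 of which (29.6%) lay below in all 3 pairs and 3 above, with 0 called. Pdia3, a disulfide isomerase of the endoplasmic reticulum, had 53.1, 49.7 and 53.8 CPM in treadmill libraries, against 62.4, 56.8 and 63.9 CPM in sedentary libraries, without overlap (-0.23, SE 0.07), and it overlaps Catsper2 on the opposite strand. Heat shock proteins and co-chaperones had a median of -0.033 over 28 members. Hspa1a, the inducible HSP70, had 0.818, 0.994 and 1.54 CPM in treadmill libraries, against 2.66, 1.25 and 1.85 CPM in sedentary libraries (-0.84, SE 0.28). Hspa1a and Hspa1b are near-identical copies, which makes their counts uncertain. Glucose uptake and glycolysis genes had a median of -0.003 over 24 members. Yet 8 of 24 (33.3%) lay above in all 3 pairs, against 14.0% of all genes, and 2 below. Groups did not overlap for 4 of 24, all with treadmill above, against 2.83% of all genes. Glycogen genes had a median of 0.032 over 20, proteasome subunits of 0.057 over 32, interferon-stimulated genes of -0.062 over 24 and myokines of -0.027 over 21, and in none of these lists was a member called (0 of each).

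**Figure D5:**
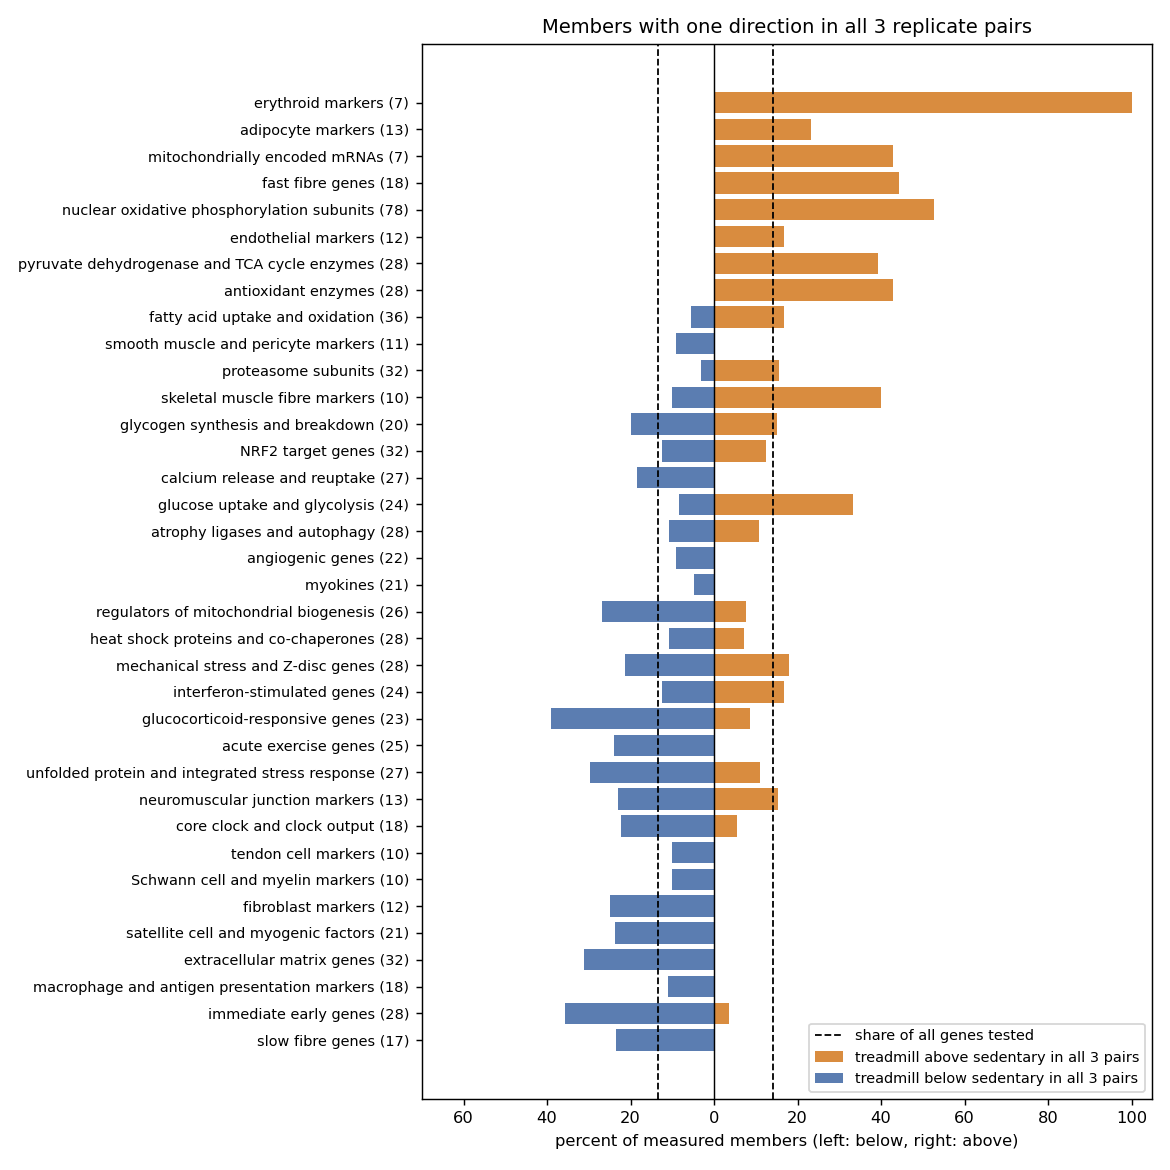
Percent of measured members of each gene list with at least 5 measured members (rows) that lie above (right) or below (left) sedentary muscle in all 3 replicate pairs; dashed lines give the share of all genes tested, 14.0% above and 13.4% below. All 7 erythroid markers lie above, as do 52.6% of oxidative phosphorylation subunits, and glucocorticoid-responsive genes have the longest of the bars drawn below, at 39.1%.

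Whether the treadmill difference of wild-type muscle differed from that of NRF2-KO muscle was tested as an interaction over all 12 libraries, 1 coefficient per group and no block. Of 14194 genes 0 were called by edgeR (270, or 1.90%, at an unadjusted p below 0.05) and 0 by DESeq2 (151 unadjusted). With lane as a term edgeR again called 0, with 730 genes at an unadjusted p below 0.05. The treadmill comparison within knockout muscle called 0 genes by edgeR in the same fit (534 at an unadjusted p below 0.05). Erythroid markers leaned in opposite directions: 0 of 7 lay above 0 in knockout muscle, where the median was -0.541, against 0.629 in wild-type muscle. Their unadjusted interaction p-values started at 0.00443 (Alas2), and none passed adjustment. Hbb-bs had 139, 255 and 134 CPM in treadmill and 310, 158 and 300 CPM in sedentary knockout libraries, an overlap that wild-type libraries did not show. Myh7 had a log2 fold change of 0.39 (SE 0.25) in knockout muscle, with an unadjusted interaction p of 0.00521 (edgeR). The slow fibre list as a whole leaned lower there too, with a knockout median of -0.148 and 13 of 17 members below 0. Extracellular matrix genes (knockout median -0.248, 29 of 32 below 0) and macrophage markers (-0.224, 17 of 18) also leaned lower in both genotypes. Fat cell markers had a knockout median of -0.401 with 10 of 13 below 0, against a median of 0.249 in wild-type muscle. Glucocorticoid-responsive genes had a knockout median of 0.25 with 20 of 23 above 0, against -0.069 in wild-type muscle. Oxidative phosphorylation subunits had a knockout median of 0.013, against 0.090 in wild-type muscle. For immediate early genes the knockout median was -0.017, against -0.223 in wild-type muscle. The smallest interaction p-values belonged to Erg, an endothelial ETS transcription factor (0.24 in wild-type, -0.41 in knockout muscle, p 0.00118), Rab4a, a small GTPase of endosome recycling (0.23 in wild-type, -0.40 in knockout muscle, p 0.00282), and Odf3l2, an outer dense fibre-like gene (-0.19 in wild-type, 0.62 in knockout muscle, p 0.00357), all unadjusted and with an adjusted p of 1 by edgeR.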

How the data were processed

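Wild-type libraries were grouped by the labels. Per the labels' protocols the TruSeq RNA kit v2 was used; it keeps no strand information. The authors deposited raw counts per gene; the submitters' processing notes name featureCounts 1.4.6-p4, STAR 2.4.1d, bcl2fastq 1.8.4 and the build GRCm38. Annotation, strand setting and the handling of multi-mapping reads were not given in the sources used here. A deposited RPKM table was not used. Of 47729 genes 47224 matched a symbol in GENCODE's GRCm38 annotation, the source of coordinates and exon lengths.

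Counts of the 6 wild-type libraries entered edgeR 4.0.16 (R 4.3.3) with TMM factors, filterByExpr (minimum count 10, minimum total 15), which kept 99.919% of counts, replicate number as block, quasi-likelihood test, Benjamini-Hochberg adjustment over 13739 genes, threshold 0.05. SE is the log2 fold change over the root of F. The pairing rests on the correlated deviations of same-numbered libraries. Pair differences and principal components used log2 CPM with a prior count of 2. The fit was run on counts simulated from its own fitted means and spread, which cannot test whether that model holds for these libraries. Correlations between libraries were 0.985 to 0.993, and a chi-square per gene of at least 7.81 between libraries showed none to be a copy.

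The gene lists, the named genes and the comparison were chosen with earlier results of these data known. Named genes are 16 fixed ones, the genes called, the 12 higher and 12 lower genes with the smallest p at a mean of at least 5 CPM, the 3 list members with the smallest p and the 3 smallest interaction p-values; others are marked as chosen after seeing their values. The gene that passed and some others are not reported here. DESeq2 1.42.0 and limma 3.58.1 served as alternatives. Promoters are RefSeq's for GRCm38.p6.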

Additional observations from a re-analysis of the deposited data

How the results depend on the processing

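The count of genes called depended on the fit. Without the replicate block 0 genes were called in the 6 libraries (154 at an unadjusted p below 0.05), 0 when all 12 libraries were fitted together (308), 0 with lane as a term (544) and 0 by DESeq2 (84); with a mean of at least 5 CPM required the blocked fit called 0 of 8800 genes (585). DESeq2 with the replicate block called 5, among them Hbb-bt, Hba-a1 and Mib1, higher, and Naca, lower. Without a filter on low counts 88 genes were called, 29 higher and 59 lower, and the interaction called 68, 37 higher and 31 lower. Leaving out a pair left 1 residual degree of freedom and gave 50 calls without pair 1, 52 without pair 2 and 35 without pair 3; without the block, leaving out each library in turn gave 0. Limma-voom, RLE factors and upper-quartile factors each called 1. The cause of these differences was not tested. Of 39 list medians, 21 kept their sign under all 6 alternatives run for lists. These are limma-voom, upper-quartile scaling, no block and leaving out each pair. With 2 residual degrees of freedom, the spread of a gene is known mainly from other genes.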
